A study of Mus musculus with 12 samples.

Results

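Zbtb, Zkscan and Zscan genes encode zinc finger transcription factors, and they were followed in poly(A) RNA-seq of the mouse hippocampus. The members are all genes whose symbol, looked up by Ensembl gene ID, is Zbtb, Zkscan or Zscan followed by a number with at most 1 further letter. This rule gave 61 of the 37991 genes counted, of which 37 were Zbtb, 9 Zkscan and 15 Zscan genes. A further 7 genes carry an older Zfp symbol in the annotation of this genome build and were given a Zbtb, Zkscan or Zscan name later, and they are described beside the members without entering their counts. *Zbtb8os* and *Zscan4-ps2* were left out because their symbols hold more than a single letter after the number.

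Proteins of these families bind DNA through a row of zinc fingers, short folds in which 2 cysteines and 2 histidines hold a zinc ion. Zbtb proteins carry a BTB domain at the other end, which forms dimers and recruits corepressors such as *Ncor1* together with *Hdac3*. Zscan proteins carry a SCAN domain, through which they pair with other SCAN proteins, and Zkscan proteins carry a SCAN domain and usually a KRAB domain, which recruits *Trim28* and, with it, *Setdb1* and *Cbx5*. In the brain, *Zbtb20* is known as a repressor that specifies hippocampal pyramidal neurons, and *Zbtb18* as a repressor that drives the differentiation of cortical neurons.

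The libraries came from hippocampi of 12 adult male C57BL/6N mice, collected 1 h after passive avoidance (PA) training, in which entry into a dark compartment is punished by a foot shock. The labels give the age as 6 to 7 months. Of the 12 libraries, 6 are labelled Wildtype and 6 *Gadd45a*-KO, a germline allele in which a neomycin cassette stands in place of exons 1 to 3 of *Gadd45a* while the last exon remains. The study compared knockouts with wild-type littermates, and how these 12 mice were spread over litters is not stated. All 12 mice were trained, so that training is shared by both groups. *Gadd45a*, a stress-inducible gene on chromosome 6, had 2.19 to 3.43 CPM (counts scaled to a common library size) in the libraries labelled Wildtype and 20.5 to 23.1 CPM in those labelled *Gadd45a*-KO, which goes against the labels. Counts per gene do not show which exons these reads came from. The libraries are therefore named by their labels, and every direction given here rests on them.

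Between 44594261 and 55540601 reads per library fell on genes. Summed markers of thalamus stood at 147 to 189 CPM in the libraries labelled Wildtype and at 139 to 186 CPM in 4 libraries labelled *Gadd45a*-KO, but at 398 and 567 CPM in *Gadd45a*-KO replicates 2 and 3. Replicate 3 also held 6898 CPM of the 5 oligodendrocyte markers, against 2179.7 to 3539 CPM in the other 11. The 8 markers of hippocampal neurons were all detected, with summed levels of 1178 to 1292 CPM under the Wildtype label and 978 to 1351 CPM under the *Gadd45a*-KO label. *Gadd45a*-KO replicates 2, 3 and 5, at 1002, 978 and 1005 CPM, lay below all Wildtype libraries, and replicates 1, 4 and 6 had 1229, 1351 and 1227 CPM. Microglial markers summed to 195 to 216 and 204 to 232 CPM in the same order of labels, endothelial markers to 108 to 157 and 136 to 155 CPM, and choroid plexus markers to 37.8 to 65.4 and 30.7 to 83.1 CPM. Of the 44 markers tested, 0 were called at 1% FDR by edgeR or by DESeq2. At an unadjusted p below 0.05 in the quasi-likelihood test of edgeR, 14 of the 44 were higher and 0 lower under the *Gadd45a*-KO label. Of all 16399 genes tested, 712 were higher and 1533 lower at this threshold. The thalamic marker *Shox2* had 0 reads.

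The members that the comparison turns on are shown first by a piece of their coding sequence, because the zinc fingers are what sets these proteins apart. For each of the 3 members called lower in the libraries labelled *Gadd45a*-KO, and for *Zkscan8* and *Zkscan3*, the first finger of the canonical spacing was read from the longest annotated coding sequence and matched to the NCBIM37 genome without a difference. Capitals mark the codons of the 2 cysteines and the 2 histidines.
*Zkscan16*: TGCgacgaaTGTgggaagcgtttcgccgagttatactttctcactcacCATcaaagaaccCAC
*Zbtb37*: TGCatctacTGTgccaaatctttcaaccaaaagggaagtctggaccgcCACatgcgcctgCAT
*Zbtb20*: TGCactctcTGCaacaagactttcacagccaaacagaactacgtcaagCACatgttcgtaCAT
*Zkscan8*: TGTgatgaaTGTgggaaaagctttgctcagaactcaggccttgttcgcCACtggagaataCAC
*Zkscan3*: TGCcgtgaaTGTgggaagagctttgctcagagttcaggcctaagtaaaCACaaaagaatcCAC

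Each of these stretches is 63 bases long. The finger of *Zkscan16* lies in exon 6 of 6 on the plus strand at chr4:58970044-58970106, and the annotated protein holds 8 such fingers. In *Zbtb37* it lies in exon 5 of 5 on the minus strand at chr1:162950376-162950438, in a protein with 3 fingers. The finger of *Zbtb20* lies in exon 14 of 15 on the plus strand at chr16:43610978-43611040, in a protein with 5 fingers. For *Zkscan8* the position is exon 6 of 6 at chr13:21612575-21612637 on the minus strand, and for *Zkscan3* it is exon 6 of 6 at chr13:21480325-21480387 on the same strand.

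Because fingers are repeated between these genes, it was asked how much of each transcript could be confused with another gene. Of the 68 members and later-named genes, 41 shared no stretch of 51 bases with the protein-coding transcripts of another gene, and 11 shared over 5% of theirs. The gene ID ENSMUSG00000036279, which lies inside *Zbtb20*, shared 100% of its stretches, *Zbtb9* shared 98.2%, and the 5 *Zscan4* genes shared 46.8% to 91.3%, mostly with each other. *Zkscan3* shared 3.96% and its neighbour *Zkscan4* 11.4%, so that reads on these stretches cannot be told apart between the genes. *Zkscan16*, *Zbtb37*, *Zkscan2* and *Zbtb49* shared none, and *Zkscan8* shared 0.335%. *Zbtb20* shared 10.8% of its stretches, mostly with the gene ID inside it.

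Expression of the family in the hippocampus was broad. Of the 61 members, 51 passed the expression filter of edgeR and were tested, namely 34 Zbtb, 9 Zkscan and 8 Zscan genes. A total of 3 untested members had a few reads. *Zbtb32*, a lymphocyte factor, had 19 reads over the 12 libraries, *Zscan10*, a factor of embryonic stem cells, had 26, and *Zscan5b* had 2. The other 7 untested members had 0 reads. These were *Zscan4b*, *Zscan4c*, *Zscan4d*, *Zscan4e* and *Zscan4f*, known from the early embryo and embryonic stem cells, *Zbtb9*, whose exons overlap those of *Ggnbp1* on the same strand, and a further gene ID with the symbol *Zbtb20*, ENSMUSG00000036279, whose exons lie inside those of *Zbtb20*. Between 46.8% and 100% of the stretches of each are shared with other genes, so that a count of 0 covers only the part not shared. For ENSMUSG00000036279, which shares 100%, it sets no limit on the level.

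Levels per kb of exon sequence were used to order the genes. Among the members, *Zbtb4* was the highest at 20.4 CPM per kb over the 12 libraries, followed by *Zbtb16* at 15.1, *Zbtb7a* at 12.3 and *Zbtb20* at 10.8 CPM per kb. *Zbtb4* binds methylated DNA, *Zbtb16* (PLZF) is a stem cell and lymphoid factor, and *Zbtb7a* acts in blood lineages. *Zbtb18*, which was named *Zfp238* in this annotation, exceeded all of them at 158 CPM per kb. Among the Zkscan genes the order differed between the labels. Under the Wildtype label *Zkscan16* led at 11.8 CPM per kb, before *Zkscan6* at 9.01 and *Zkscan3* at 7.54, while under the *Gadd45a*-KO label *Zkscan6* led at 9.07, before *Zkscan1* at 6.45 and *Zkscan3* at 6.24, with *Zkscan16* at 3.98 CPM per kb. *Zscan18* at 7.87, *Zscan21* at 5.34 and *Zscan22* at 3.98 CPM per kb led the Zscan members, below the later-named *Zscan26* at 27.4 CPM per kb.

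**Figure D1:**
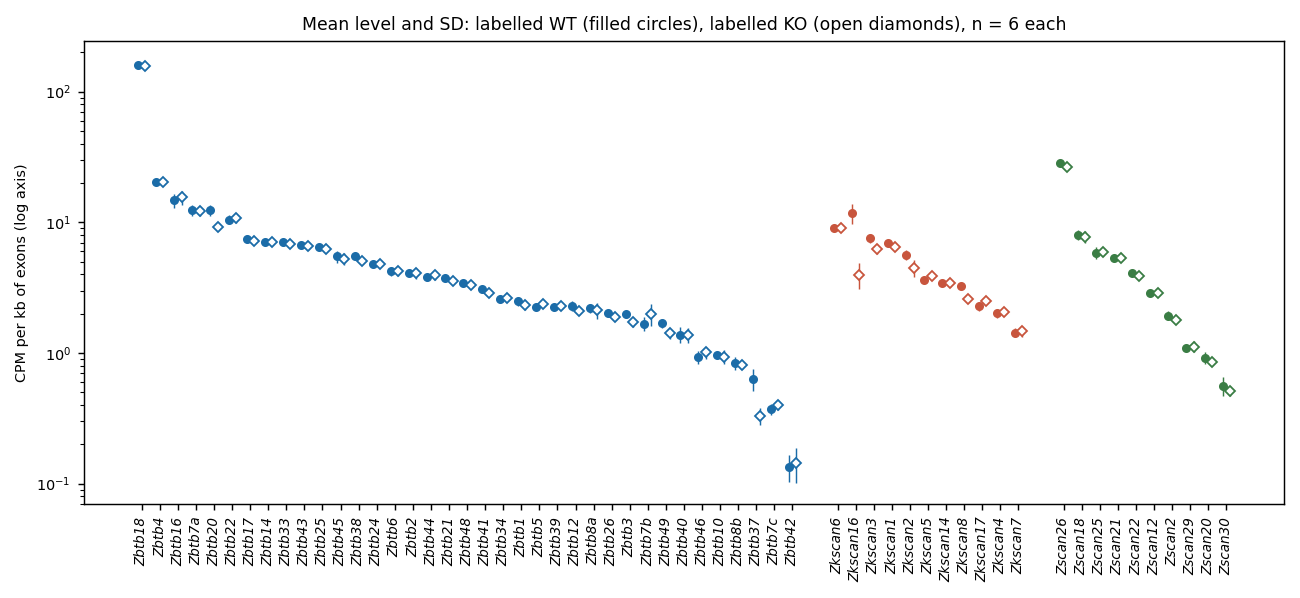
Mean level in CPM per kb of exon sequence (log axis, bars are the SD, n = 6 per label) of the 51 tested members and the 7 later-named genes, ordered by level within Zbtb (blue), Zkscan (red) and Zscan (green). Filled circles (labelled Wildtype) and open diamonds (labelled *Gadd45a*-KO) lie close together for most genes and are far apart for *Zkscan16* and *Zbtb37*.

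At 1% FDR, the threshold used in the study, 3 of the 51 tested members had lower counts under the *Gadd45a*-KO label (5.88%), against 2.62% of the 16399 genes tested. These were *Zkscan16*, *Zbtb37* and *Zbtb20*. No member was higher, against 0.0244% of all genes, with *Zkscan17* the only member above 0 with an unadjusted p below 0.05 in edgeR's quasi-likelihood test, and 0 members higher with DESeq2. At 5% FDR 6 members were lower, against 4.43% of all genes, and none was higher, against 0.122%. The additional members at this threshold were *Zkscan3*, *Zbtb49* and *Zkscan2*. The groups did not overlap, with all *Gadd45a*-KO values below all Wildtype values, for 5 members, which is 9.80% of those tested against 3.12% of all genes, and in the opposite direction for 0 members, against 0.183%.

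Most of the family lay near 0. The median log2 fold change of the 51 members was -0.04, with an interquartile range from -0.10 to 0.02, beside a median of 0.00 and a range from -0.06 to 0.06 for all genes tested. A log2 fold change smaller than 0.1 in size was found for 33 members (64.7%), close to the 65.3% of all genes. By subfamily the medians were -0.03 for 34 Zbtb, 0.00 for 9 Zkscan and -0.06 for 8 Zscan genes. Zkscan genes spread the most, from -1.57 to 0.13, with 3 of 9 lower at 5% FDR, against 4.43% of all genes, while the Zscan members ran only from -0.13 to 0.04 and 0 of 8 were called at either threshold. None of the 8 tested Zscan members had an unadjusted p below 0.05 in edgeR's quasi-likelihood test, and 0 were called by DESeq2.

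**Figure D2:**
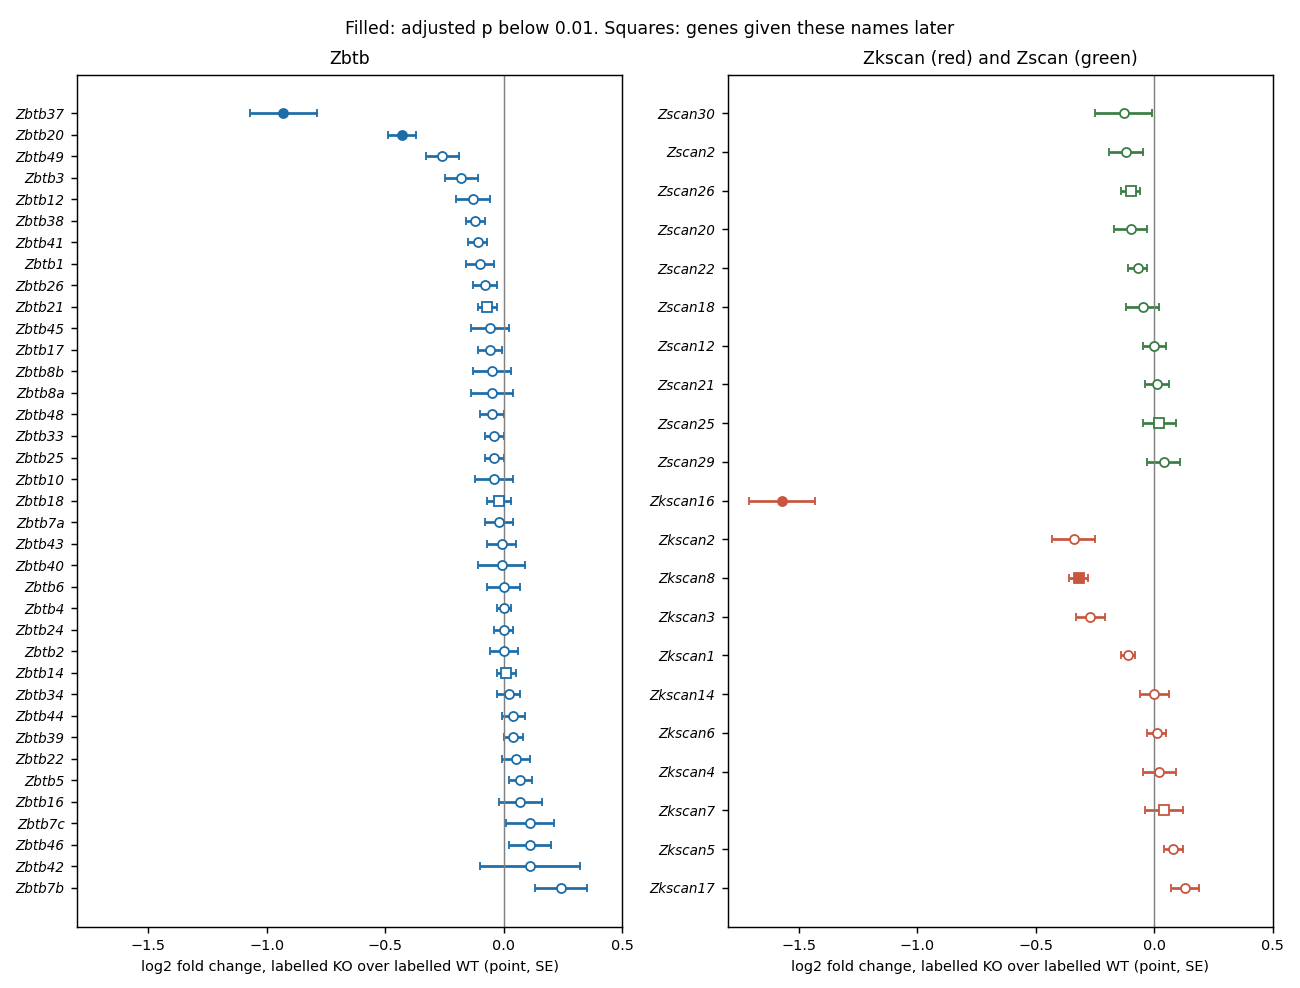
Log2 fold change between libraries labelled *Gadd45a*-KO and Wildtype with its SE for the 51 tested members (circles) and the 7 later-named genes (squares), filled where the adjusted p is below 0.01. *Zkscan16* at -1.57, *Zbtb37* at -0.93, *Zbtb20* at -0.43 and *Zkscan8* at -0.32 are filled, and most others lie within 0.1 of 0.

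Set against genes of similar level, the called members were spread over the range. When the tested genes were divided into 5 classes of equal size by mean log2 CPM, 21 members fell into the middle class, 14 into the class below it, 10 into the class above it, 4 into the highest and 2 into the lowest. The middle class held *Zkscan16* as the only call among its members, while 2.03% of its other genes were lower. In the class with *Zbtb37*, 1 of 14 members and 2.42% of the others were lower. *Zbtb20* stood in the highest class, where 1 of 4 members and 4.40% of the others were lower. The median log2 fold change of members in the 5 classes lay between -0.05 and 0.00, and that of the other genes between -0.01 and 0.03.

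**Figure D3:**
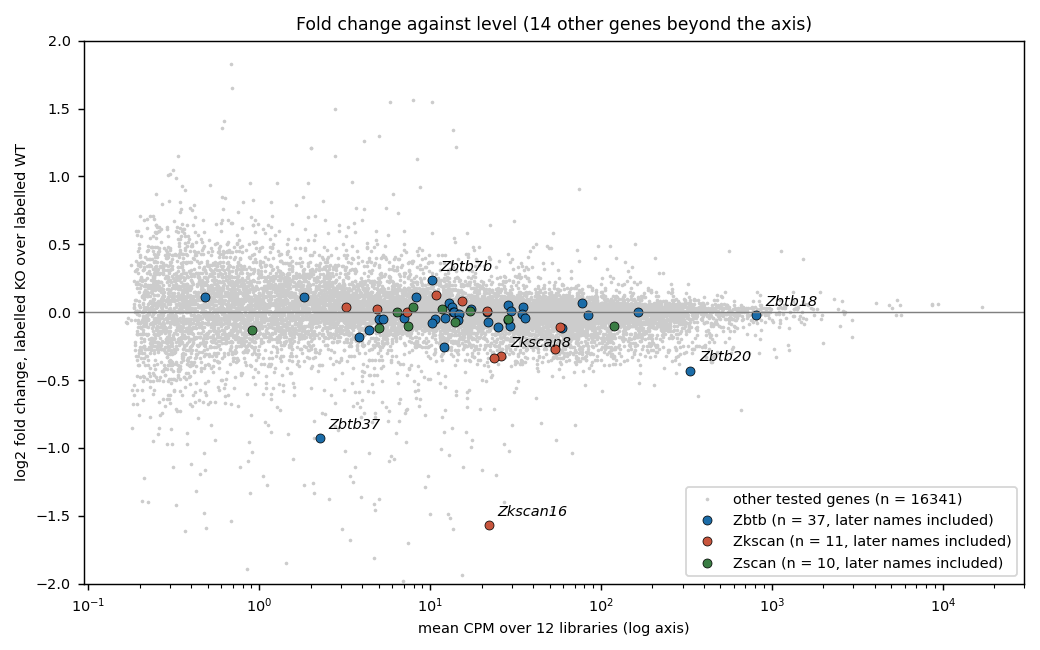
Log2 fold change between libraries labelled *Gadd45a*-KO and Wildtype against mean CPM over 12 libraries (log axis) for the tested Zbtb, Zkscan and Zscan genes, later names included (coloured), and all other tested genes (grey, 14 beyond the axis). *Zkscan16* and *Zbtb37* lie at the lower edge of genes with a similar level, and *Zbtb20* below most genes of its level.

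The largest difference in the family was that of *Zkscan16* (ENSMUSG00000038630, chromosome 4, 58956500 to 58971227, plus strand). Its lowest, median and highest values were 25.9, 32.3 and 40.4 CPM in the libraries labelled Wildtype and 8.30, 10.6 and 14.9 CPM in those labelled *Gadd45a*-KO. All 6 *Gadd45a*-KO libraries lay below the lowest Wildtype library, with a wide gap between the groups. The level under the *Gadd45a*-KO label was 33.7% of that under the Wildtype label, a log2 fold change of -1.57 (SE 0.14, Benjamini-Hochberg adjusted p = 1.61e-05 by the quasi-likelihood test of edgeR). The read numbers behind these values were 1162 to 2051 and 416 to 690 per library. Leaving out any 1 of the 12 libraries gave log2 fold changes from -1.66 to -1.49.

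*Zbtb37* (ENSMUSG00000043467, chromosome 1, 162938931 to 162964980, minus strand) was the lowest Zbtb member by log2 fold change and among the least expressed. It had 2.22, 2.89 and 3.70 CPM as lowest, median and highest value under the Wildtype label, and 1.23, 1.53 and 1.84 CPM under the *Gadd45a*-KO label. Again the groups did not overlap. The log2 fold change was -0.93 (SE 0.14, Benjamini-Hochberg adjusted p = 0.000890 by the quasi-likelihood test of edgeR), which is 52.5% of the level under the Wildtype label. These values rest on 101 to 185 reads per Wildtype library and 56 to 86 per *Gadd45a*-KO library.

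*Zbtb20* (ENSMUSG00000022708, chromosome 16, 42875994 to 43642715, plus strand), the hippocampal regulator, was the most abundant member in CPM. Its lowest, median and highest values were 334, 383 and 428 CPM under the Wildtype label and 262, 282 and 319.9 CPM under the *Gadd45a*-KO label. The groups were separate, but the highest *Gadd45a*-KO library came close to the lowest Wildtype library. The log2 fold change was -0.43 (SE 0.06, Benjamini-Hochberg adjusted p = 0.00113 by the quasi-likelihood test of edgeR), or 74.4% of the Wildtype level. In hippocampal tissue as a whole, fewer cells that express a gene and less RNA per cell cannot be told apart. The 8 markers of hippocampal neurons summed to 1178 to 1292 CPM under the Wildtype label and 978 to 1351 CPM under the *Gadd45a*-KO label. *Gadd45a*-KO replicates 2, 3 and 5 lay below all Wildtype libraries in this sum, and replicates 1, 4 and 6 did not. The 5 astrocyte markers, a cell type in which *Zbtb20* is also expressed, summed to 1234 to 1563 CPM under the Wildtype label and 1376 to 1523 CPM under the *Gadd45a*-KO label.

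The longest annotated transcript of *Zbtb20* spans 26901 nt, of which 23861 nt are 3′UTR, and in these libraries the fold change moved with transcript length. Over all 16365 tested genes with a length, Spearman's rho across genes between log2 fold change and length was -0.17. With a smooth offset for transcript length, the log2 fold change of *Zbtb20* was -0.14 with an adjusted p = 0.210 in edgeR's quasi-likelihood test, so that the call was lost. The calls of *Zkscan16*, at 2794 nt, and *Zbtb37*, at 3899 nt, were kept under the offset, with log2 fold changes of -1.58 and -0.93. The offset was fitted to these same libraries, so it takes out any difference between the labels that follows length, whatever its source. Calls lost under the offset, here and below, are to be read with this limit. How much length contributes to the value of *Zbtb20* was not tested.

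Over the 51 tested members Spearman's rho across genes between log2 fold change and transcript length was 0.05. With the length offset it was 0.41 over the members, beside 0.01 over all genes. Without the offset it was 0.08 for the length of the 3′UTR, beside -0.11 for 14899 genes. Members with longer transcripts than 7000 nt numbered 9, of which 8 had a log2 fold change below 0, with a median of -0.10 and 1 called lower. The 1100 other tested genes of such length had a median of -0.11, and 18.1% of them were called lower. In the 24 members between 3000 and 7000 nt the median was 0.00, and in the 18 shorter ones -0.05, while the other genes of these lengths had medians of 0.00 and 0.02. The number of zinc fingers per protein gave a rho of -0.25 over the members and -0.08 over 14897 genes. Genes are not independent replicates, and these values are descriptions.

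**Figure D4:**
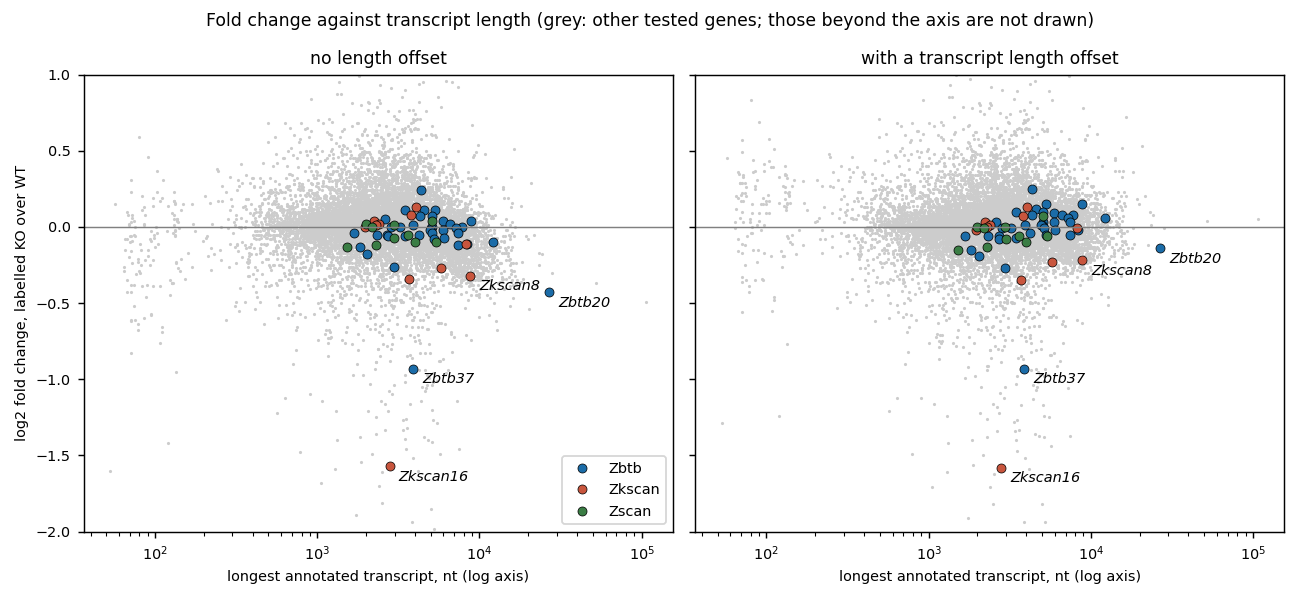
Log2 fold change between libraries labelled *Gadd45a*-KO and Wildtype against the longest annotated transcript (nt, log axis), without (left) and with (right) a transcript length offset. *Zbtb20*, the longest at 26901 nt, moves from -0.43 to -0.14, while *Zkscan16* stays at -1.57 and -1.58 and *Zbtb37* at -0.93.

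Just outside the threshold lay *Zkscan3* and *Zbtb49*, while *Zbtb20* and *Zbtb37* were the members just inside. *Zkscan3* represses genes of autophagy and lysosomes. Its lowest, median and highest values were 54.1, 57.8 and 68.2 CPM under the Wildtype label and 44.1, 48.7 and 55.6 CPM under the *Gadd45a*-KO label. The groups met in a single library, with 5 of 6 *Gadd45a*-KO libraries below the lowest Wildtype library. The log2 fold change was -0.27 (SE 0.06, Benjamini-Hochberg adjusted p = 0.0190 by the quasi-likelihood test of edgeR). Leaving out 1 library gave log2 fold changes from -0.30 to -0.22, with adjusted p from 0.00580 without *Gadd45a*-KO replicate 5, the library that overlapped, to 0.0672 without *Gadd45a*-KO replicate 1 and 0.0652 without Wildtype replicate 5, all in edgeR's quasi-likelihood test.

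For *Zbtb49* the values were 12.4, 12.6 and 15.0 CPM under the Wildtype label and 9.45, 11.1 and 11.9 CPM under the *Gadd45a*-KO label. Although the groups did not overlap (exact permutation test, two-sided p = 0.00216, which is the smallest value for 6 against 6 libraries), the log2 fold change of -0.26 (SE 0.07) had an adjusted p = 0.0360 after Benjamini-Hochberg adjustment of the quasi-likelihood test of edgeR. *Zkscan2* had 23.3, 27.1 and 29.0 CPM under the Wildtype label and 17.0, 21.2 and 25.1 CPM under the *Gadd45a*-KO label. Here 5 of 6 *Gadd45a*-KO libraries lay below the lowest Wildtype library, and the log2 fold change was -0.34 (SE 0.09, Benjamini-Hochberg adjusted p = 0.0390 by the quasi-likelihood test of edgeR). With the transcript length offset *Zkscan2* was at -0.35 with an adjusted p = 0.0505 in edgeR's quasi-likelihood test, outside 5% FDR. Leaving out 1 library raised the adjusted p of edgeR's quasi-likelihood test to as much as 0.0984 for *Zbtb49* and 0.121 for *Zkscan2*. DESeq2 placed *Zkscan3*, *Zbtb49* and *Zkscan2* below 0.01.

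*Zkscan1* was the last of the members without overlap between the groups. Its lowest, median and highest values were 57.0, 58.9 and 62.6 CPM under the Wildtype label and 52.6, 55.0 and 56.7 CPM under the *Gadd45a*-KO label. The difference was small, a log2 fold change of -0.11 (SE 0.03), with an exact permutation p = 0.00216 and an adjusted p = 0.0898 in edgeR's quasi-likelihood test. Its longest transcript has 8261 nt, and with the length offset the log2 fold change was -0.01.

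**Figure D5:**
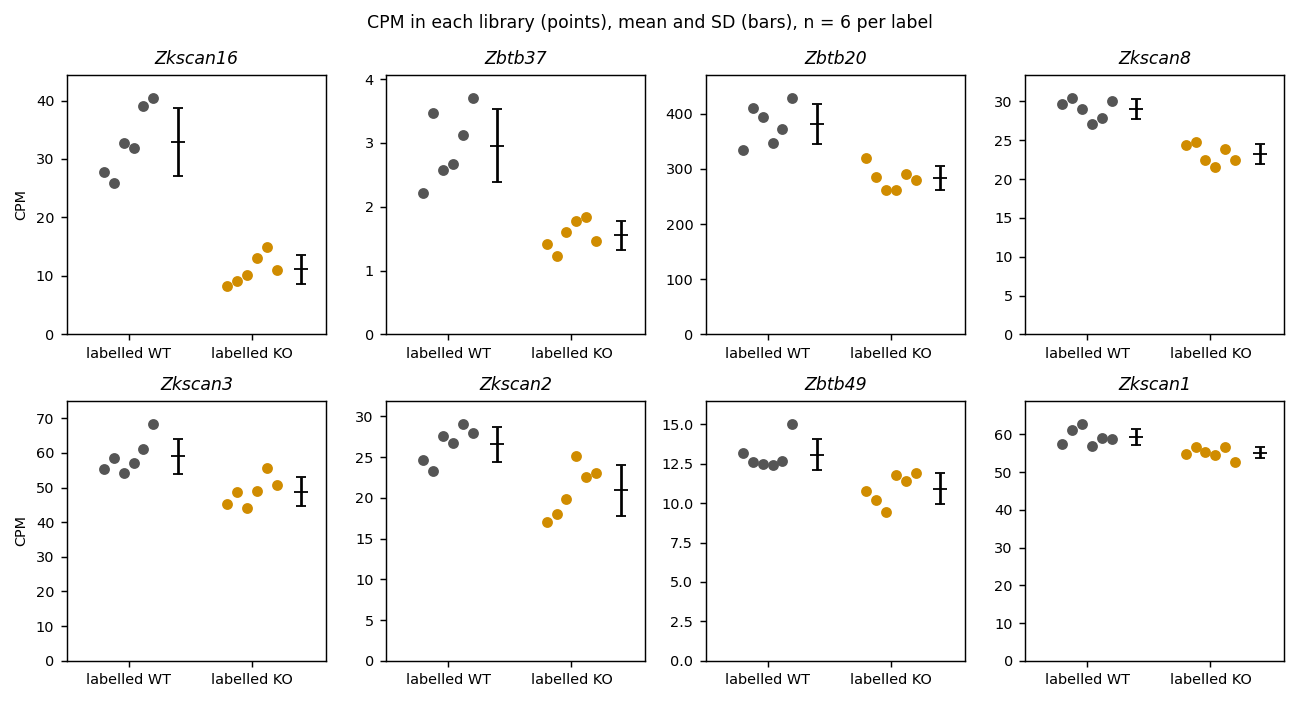
CPM in each library (points) with the mean and SD (bars, n = 6 per label) for 8 genes with an adjusted p below 0.05 or without overlap between the groups. The groups are separate for *Zkscan16*, *Zbtb37*, *Zbtb20*, *Zkscan8*, *Zbtb49* and *Zkscan1*, and overlap for *Zkscan3* and *Zkscan2*.

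Among the 4 genes listed for brain development, *Zbtb20* stood apart from the others. *Zbtb18* had 752, 802 and 881 CPM as lowest, median and highest value under the Wildtype label and 767, 783 and 894 CPM under the *Gadd45a*-KO label, a log2 fold change of -0.02 (SE 0.05) that was 0.01 with the transcript length offset. *Zbtb16* ran from 60.6 to 88.4 CPM and from 66.8 to 93.4 CPM in the same order of labels, with a log2 fold change of 0.07 (SE 0.09). *Zbtb45* had a log2 fold change of -0.06 (SE 0.08). The ranges of both groups overlapped for *Zbtb18*, *Zbtb16* and *Zbtb45*, and 1 of the 4 genes of this list was called lower, against 2.62% of all genes. This was *Zbtb20*, whose call was lost with the length offset.

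The readers of methylated DNA are of interest here because *Gadd45a* is known as an adapter in active DNA demethylation. Kaiso, encoded by *Zbtb33* on the X chromosome, had 33.0, 37.0 and 38.3 CPM as lowest, median and highest value under the Wildtype label and 33.8, 34.9 and 37.7 CPM under the *Gadd45a*-KO label. *Zbtb4* had 165 ± 4.95 and 165 ± 6.94 CPM (SD, n = 6 each), and its log2 fold change was 0.00 (SE 0.03). *Zbtb38* ran from 57.2 to 64.8 CPM and from 52.7 to 58.8 CPM, and 4.22% of its 51-base stretches are shared with other genes, mostly with the overlapping E030011O05Rik on the same strand. Its log2 fold change was -0.12 (SE 0.04, Benjamini-Hochberg adjusted p = 0.154 by the quasi-likelihood test of edgeR). None of the 3 was called, at an unadjusted p below 0.05 for *Zbtb38* alone, and DESeq2 also called 0 of them. The log2 fold change of *Zbtb33* was -0.04 (SE 0.04).

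Of 9 factors of blood and lymphoid lineages 8 were tested, and 0 were called by edgeR or DESeq2 or had an unadjusted p below 0.05 in the quasi-likelihood test of edgeR. Their log2 fold changes ran from -0.10 to 0.24. The highest, 0.24 (SE 0.11, Benjamini-Hochberg adjusted p = 0.370 by the quasi-likelihood test of edgeR), was that of *Zbtb7b*, which directs CD4 T cell fate. It had 8.21, 9.0 and 11.0 CPM as lowest, median and highest value under the Wildtype label and 9.63, 10.3 and 15.4 CPM under the *Gadd45a*-KO label. The value of 15.4 CPM was that of *Gadd45a*-KO replicate 3, the library with the most oligodendrocyte and thalamic markers, and without it the log2 fold change was 0.13. *Zbtb7a* (-0.02, SE 0.06), *Zbtb17* (-0.06, SE 0.05), the partner of *Myc* also called Miz-1, and *Zbtb24* (0.00, SE 0.04), which is mutated in an immunodeficiency with hypomethylated centromeric repeats, had log2 fold changes near 0, and that of *Zbtb7a* was 0.03 with the transcript length offset. The telomere binding members *Zbtb48* (-0.05, SE 0.05) and *Zbtb10* (-0.04, SE 0.08, or 0.03 with the offset) were likewise not called.

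Of the remaining named members, *Zkscan17* had the highest log2 fold change of its subfamily at 0.13 (SE 0.06, Benjamini-Hochberg adjusted p = 0.349 by the quasi-likelihood test of edgeR), with 9.05 to 11.1 CPM and 10.7 to 12.5 CPM. *Zkscan5* had 0.08 (SE 0.04) and *Zkscan6* 0.01 (SE 0.04) on the log2 scale. In the Zscan subfamily the log2 fold changes were -0.13 (SE 0.12) for *Zscan30*, the lowest, and 0.04 (SE 0.07) for *Zscan29*, the highest. For the 3 best expressed Zscan members they were -0.05 (SE 0.07) for *Zscan18*, 0.01 (SE 0.05) for *Zscan21* and -0.07 (SE 0.04) for *Zscan22*. The sign of *Zscan29* and *Zscan21* changed when *Gadd45a*-KO replicates 2 and 3 were left out. The other 26 tested members had log2 fold changes from -0.18 to 0.11 and adjusted p of 0.226 or more in edgeR's quasi-likelihood test.

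The 7 later-named genes were treated in the same way. *Zkscan8* (*Zfp192* in this annotation, ENSMUSG00000063894) had 27.1, 29.3 and 30.4 CPM as lowest, median and highest value under the Wildtype label and 21.6, 23.2 and 24.7 CPM under the *Gadd45a*-KO label. The groups did not overlap and the spread within each was small. Its log2 fold change was -0.32 (SE 0.04, Benjamini-Hochberg adjusted p = 0.000492 by the quasi-likelihood test of edgeR). With the transcript length offset it was -0.22 and the adjusted p = 0.0118 in edgeR's quasi-likelihood test, just outside the threshold, for a longest transcript of 8805 nt. The other 6, which are *Zbtb14*, *Zbtb18*, *Zbtb21*, *Zkscan7*, *Zscan25* and *Zscan26*, had log2 fold changes between -0.10 and 0.04 and were not called. Counting them with the members, 4 of 58 tested genes were lower (6.90%, against 2.62% of all genes) and 0 higher (against 0.0244%), and with the length offset the calls of *Zbtb20* and *Zkscan8* were lost.

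*Zkscan8* and *Zkscan3* are close neighbours. On chromosome 13, *Zscan12*, *Zkscan3*, *Zscan26*, *Zkscan4* and *Zkscan8* lie within 21454696 to 21622989 of NCBIM37. Their log2 fold changes in this order were 0.00, -0.27, -0.10, 0.02 and -0.32. *Zkscan3*, *Zscan26* and *Zkscan8* lie on the minus strand and *Zscan12* and *Zkscan4* on the plus strand. The 8 genes tested in this interval had a median log2 fold change of -0.05, and *Zkscan8* was the only one called lower at 1% FDR. Over all genes tested, 2.62% were called lower. With gaps of at most 500 kb, 10 such groups of neighbouring family genes were found, for example *Zbtb25* and *Zbtb1* on chromosome 12, at -0.04 and -0.10, and *Zbtb34* and *Zbtb43* on chromosome 2, at 0.02 and -0.01.

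Genes that share a domain with the members but not the name were examined as well. Of 8 other BTB zinc finger genes 7 were found and tested, *Bcl6* among them, and 0 were called, with log2 fold changes from -0.14 to 0.27. The highest was *Bcl6b*, which had an unadjusted p below 0.05 in edgeR's quasi-likelihood test, and DESeq2 gave 0 calls. In the list of 15 other SCAN genes 12 were found under these symbols and tested. Here 3 of 12 were lower, against 2.62% of all genes, namely *Zfp445*, *Zfp369* and *Peg3*, the imprinted gene.

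*Zfp445*, which takes part in maintaining genomic imprints, ran from 84.6 to 102 CPM under the Wildtype label and from 41.2 to 52.9 CPM under the *Gadd45a*-KO label, a log2 fold change of -1.04 (SE 0.06, Benjamini-Hochberg adjusted p = 2.00e-07 by the quasi-likelihood test of edgeR). *Zfp369* ran from 12.6 to 18.9 and from 7.85 to 9.67 CPM, with a log2 fold change of -0.77 (SE 0.09). *Peg3* ran from 306 to 363 and from 238 to 301 CPM, at -0.30 (SE 0.06). With the transcript length offset *Peg3*, at 8694 nt, had -0.20 and an adjusted p = 0.0218 in edgeR's quasi-likelihood test, so that its call was lost, while *Zfp445* at -1.05 and *Zfp369* at -0.78 were still called. In none of the 3 did the groups overlap. The remaining 9 had log2 fold changes from -0.30 for *Scand1* (SE 0.52) to 0.06 for *Zfp110* (SE 0.04).

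Known partners of these proteins were read from the same fit. None of the 5 partners of BTB domains was called by edgeR, with log2 fold changes from -0.14 for *Ncor1* (SE 0.04) to 0.02 for *Bcor* (SE 0.06). With the transcript length offset these were -0.03 for *Ncor1* and 0.09 for *Bcor*. The quasi-likelihood test of edgeR gave 1 of them an unadjusted p below 0.05, and DESeq2 called 0. Of the 6 genes of KRAB repression, 1 was lower (16.7%, against 2.62% of all genes), *Cbx5*, which encodes the heterochromatin protein HP1 alpha. It ran from 212 to 244 CPM under the Wildtype label and from 182 to 206 CPM under the *Gadd45a*-KO label, with a log2 fold change of -0.26 (SE 0.04, Benjamini-Hochberg adjusted p = 0.00242 by the quasi-likelihood test of edgeR). With the transcript length offset *Cbx5*, at 8803 nt, had -0.15 and an adjusted p = 0.0142 in edgeR's quasi-likelihood test, so that the call was lost. *Atf7ip*, a cofactor of *Setdb1*, had -0.23 (SE 0.05, Benjamini-Hochberg adjusted p = 0.0186 by the quasi-likelihood test of edgeR) and was not called at 1% FDR. With the transcript length offset it had -0.22 and an adjusted p = 0.0229 in edgeR's quasi-likelihood test. At 5% FDR 2 of the 6 genes were lower, against 4.43% of all genes, and DESeq2 called 2 at 1% FDR. All 6 had a log2 fold change below 0, as did 7905 of the 16399 genes tested. *Trim28* itself, at -0.01 (SE 0.04), and *Setdb1*, at -0.03 (SE 0.04), lay near 0.

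Library by library, the members as a group stayed close to the Wildtype mean. The median deviation of the 51 members from the Wildtype mean of log2 CPM was between -0.05 and -0.03 in the 6 libraries labelled *Gadd45a*-KO and between -0.04 and 0.03 in those labelled Wildtype, so that the ranges overlapped. Over all tested genes the same medians lay between -0.01 and 0.01. Without *Gadd45a*-KO replicates 2 and 3, a choice made after seeing the markers, the same 3 members were called lower, while 199 genes in all were called lower.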

How the data were processed

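Poly(A) RNA of 12 hippocampi was sequenced in a stranded protocol. The authors aligned the reads with TopHat 1.4.1 to NCBIM37 (mm9), counted them per Ensembl gene with HTSeq 0.5.4p3 and deposited whole read counts, 6 libraries per label, without normalization or pooling. Rows that name no gene (24.1% to 26.3% of a library) were left out. Counts were filtered, scaled with TMM and compared with edgeR 4.0.16 (R 4.3.3), with its quasi-likelihood test and Benjamini-Hochberg adjustment over the 16399 genes tested and no covariate. Each SE was taken from the log2 fold change and the F statistic of its test (size divided by the root of F). CPM use TMM library sizes, and 1 read is 0.0180 to 0.0224 CPM. Alternatives were DESeq2 1.42.0, RLE size factors, other filters, 5% FDR, the replicate number as a block, a transcript length offset (spline with 5 degrees of freedom) and fits without single libraries. Leaving out Gadd45a-KO replicates 2 and 3 together and adding the later-named genes were chosen after seeing the data. Exact permutation tests ran in Python 3.11.15 with scipy 1.17.1. Nothing in the labels says how the mice were spread over litters, so that p-values measure the spread between these libraries. None of the 30 pairs within a label looked like a library deposited again: their chi-square statistics over genes were 9.12 to 40.6 times the degrees of freedom.

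Symbols came from the GENCODE annotation of this build, which matched 37205 of 37991 IDs, and later names from RefSeq. Members and lists were chosen with earlier results of these data known. Named members were those with an adjusted p below 0.05, those with known roles, the 3 best expressed and the extremes of each subfamily, those next to the threshold, those without overlap between groups, and untested members with reads. A gene of the list of BTB partners is not reported here.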

Additional observations from a re-analysis of the deposited data

Results flagged for a closer look

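In 54 groups of 6 libraries (27 named genes under both labels), Dixon's test at the 95% level picked out a single library in 3. Chance alone gives about 1 in 20, or 2.70 of the 54, so that 3 is close to the number expected. *Zbtb49* had 15.0 CPM in Wildtype replicate 6 against 12.4 to 13.2 CPM in the other 5, and without this library its log2 fold change was -0.21. *Zbtb18* had 894 CPM in *Gadd45a*-KO replicate 1 against 767 to 809 CPM in the others. *Zbtb7b* had 15.4 CPM in *Gadd45a*-KO replicate 3 against 9.63 to 10.8 CPM in the others. Replicate 3 also had the highest sums of oligodendrocyte and thalamic markers, and their part in the value of *Zbtb7b* was not tested.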

How the results depend on the processing

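The 3 members called lower were called in each of the 12 fits that left out 1 library, and *Zkscan3* was called as well without *Gadd45a*-KO replicate 5. They were also called with RLE size factors, with no filter, with at least 10 counts in every library and without *Gadd45a*-KO replicates 2 and 3, and no fit called a member higher. DESeq2 called 6 members lower, and 6 were lower at 5% FDR. Symbols of the annotation gave the same members, since the symbol table holds those symbols. With a transcript length offset the call of *Zbtb20* was lost and 2 members were lower. The median of the members was then -0.01, as it was when the offset went with the replicate block, and it lay between -0.03 and -0.01 when 1 library was left out. Over all genes the 430 calls lower became 661 with DESeq2, 250 with the offset, 285 with offset and block, 199 without *Gadd45a*-KO replicates 2 and 3, and 239 to 467 without 1 library. The signs of values near 0 were not stable. With the offset *Zbtb18* was 0.01, *Zbtb7a* 0.03 and *Zbtb10* 0.03 with or without the block. Without *Gadd45a*-KO replicates 2 and 3 *Zbtb18* was 0.01, *Zbtb7a* 0.02, *Zscan21* -0.03 and *Zscan29* -0.02. Without 1 library *Zbtb18* ran from -0.04 to 0.02, *Zbtb7a* from -0.05 to 0.04 and *Zscan18* from -0.10 to 0.01. The causes were not tested.

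Replicate numbers are shared between the labels, but nothing says that they mark litters or batches. Same-numbered libraries deviated together with correlations of 0.127, 0.245, 0.262, 0.179, 0.103 and -0.076, 5 of 6 of them above 0.1. Pairing was to be accepted only where all 6 exceeded 0.1, so the block was kept as an alternative, and whether the numbers pair the mice is not known. With the replicate block 5 members were lower, the additional ones being *Zkscan3* (adjusted p = 0.00261 in edgeR's quasi-likelihood test) and *Zkscan2* (adjusted p = 0.00449), while the genes called lower rose from 430 to 509 in all. With the block and the length offset 4 were lower. Of the Wildtype libraries 1 of 6, and of the *Gadd45a*-KO libraries 3 of 6, correlated best with their own number.

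Untested members had at most 26 reads in all, at which a difference between the groups could not be detected.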

Other observations

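Zinc finger genes outside these families were counted in the same fit. Of 513 other tested genes whose longest coding sequence holds 2 or more fingers of this type, 26 were lower at 1% FDR (5.07%), 0 were higher, and their median log2 fold change was -0.03, beside 2.62% and 0.00 for all tested genes. For 32 of the 513 (6.24%) all *Gadd45a*-KO values lay below all Wildtype values, beside 9.80% of the tested members and 3.12% of all tested genes. Over the 567 such genes with the members included, Spearman's rho across genes between log2 fold change and transcript length was -0.02, while it was -0.17 over all genes. This list was added after the data had been seen, and the difference in shares was not tested.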
